A study of Homo sapiens with 4 samples.

Results

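The BCL2 family decides whether a cell opens its outer mitochondrial membrane and dies. The 10 members analysed here are the antiapoptotic genes *BCL2*, *BCL2L1*, *BCL2L2* and *MCL1*, the effectors *BAX* and *BAK1*, and the BH3-only genes *BCL2L11*, *BID*, *BAD* and *HRK*. They were taken by symbol from the table of transcript counts, and transcripts sharing a gene identifier were added up. All 10 symbols were found, each under 1 identifier, among 57820 genes in the table, of which 31393 had at least 1 count. All 10 passed the filter on low counts.

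The cells were of the established neuroblastoma line SK-N-SH, grown from a human tumour metastasis. RNA-seq of total RNA was performed on 2 libraries of cells transduced with an empty lentivirus vector (vector control) and on 2 libraries of cells transduced with a lentivirus carrying the lncRNA *RP5-998N21.4* behind the EF1a promoter (*RP5-998N21.4* OE). The genotype label of the control libraries reads wild type, but their treatment label gives the empty vector, so both conditions went through transduction. Nothing in the labels states that the 2 libraries of a condition came from separate cultures, and the p-values then measure only the spread between these libraries, which may be technical.

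The effectors BAX and BAK form the pore that releases cytochrome c. The antiapoptotic proteins hold the effectors and the BH3-only proteins in check, while the BH3-only proteins sense damage or loss of growth signals and either bind the antiapoptotic proteins or activate the effectors. Neuroblastoma cells are known to lean on BCL2 and MCL1 for survival, and the BH3-only gene *HRK* (harakiri) is known from neurons deprived of growth factor.

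Library totals ranged from 23785164 to 28307591 counts. Levels of one gene are given in CPM, the usual depth-scaled count, here with library sizes adjusted by TMM, and levels of different genes are compared only in TPM, which also divides by transcript length. *RP5-998N21.4* was at 1.37 and 1.40 CPM in the vector control libraries and at 95.8 and 97.0 CPM in the OE libraries. Of 8 neuroblastoma markers, 7 had counts. In all 7 each OE library was above each vector control library, as in 27.8% of all tested genes. By edgeR's test, described below, 5 had an unadjusted p under 0.05, where 10.1% of all tested genes were higher at that p. *PHOX2A* and *ISL1* did not. Their vector control libraries lay apart, at 14.2 and 53.7 CPM for *PHOX2A* and at 16.6 and 39.7 CPM for *ISL1*. The summed level of the 8 was 410 and 478 CPM in the vector control and 808 and 760 CPM in OE. *TH*, the rate-limiting enzyme of catecholamine synthesis, had 0 counts in every library. Of 8 markers of other cell types, 7 were found in the table, 3 of them had 0 counts in every library, and none reached a mean of 1 CPM. Their highest count in any library was 30, and their summed level was 1.63 and 2.76 CPM in the vector control and 1.07 CPM in each OE library. The part of this marker shift in the results below was not tested. In bulk RNA, a change in the share of cells with a transcript and a change in RNA per cell cannot be told apart.

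Between conditions, *HRK* and *BCL2* were higher in the *RP5-998N21.4* OE libraries, and *MCL1*, *BID* and *BAD* were lower, while *BAX* and *BCL2L1* stayed within a few percent. The study's results give thresholds of an adjusted p under 0.01 and a log fold change beyond 0.5 in size, read here as log2. At these thresholds, the quasi-likelihood test of edgeR, adjusted by Benjamini-Hochberg over 20528 genes, called 0 of the 10 members, and 0% of all tested genes. With the adjusted p relaxed to 0.05, it gave again 0 members, and 0.594% of all tested genes. At an unadjusted p under 0.05 it gave 5 members, 2 higher and 3 lower in OE, where the background was 20.8% of all tested genes (10.1% higher and 10.7% lower). With vector control replicate 1 dropped, 3 members remained at that p (*BCL2*, *MCL1* and *HRK*), beside 16.3% of the genes tested in that fit. The same 3 remained with vector control replicate 2 dropped, beside 15.8% of genes. With OE replicate 2 dropped, *BID* and *BAD* left and *BCL2L11* was added, giving 4 members beside 16.2% of genes. With OE replicate 1 dropped, the same 5 members had that p, beside 14.4% of genes. With the replicate number as a block there were 3 (*BCL2*, *MCL1* and *HRK*), beside 14.9% of genes. *BAD* also left with upper-quartile factors, where *BAK1* was added (5 members, beside 21% of genes), and with only the highest-mean transcript of each gene (4 members, beside 18.4%). With transcript length as an offset, *BCL2L11* was added to the 5 (6 members, beside 19.5%). The Wald test of DESeq2 called 2 members, *HRK* and *BCL2*, both higher, against a background of 8.77% of genes called in either direction and 4.35% called higher. limma-voom called 0 members and 0% of genes. In 9 members the libraries of the conditions did not overlap, 6 higher and 3 lower in OE, and so did 55.4% of all tested genes (27.8% higher and 27.6% lower). The median log2 fold change of the 10 members was 0.09, beside 0.01 over all genes tested. A two-sided exact permutation test of 1 gene has 0.333 as its smallest possible p here.

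**Figure D1:**
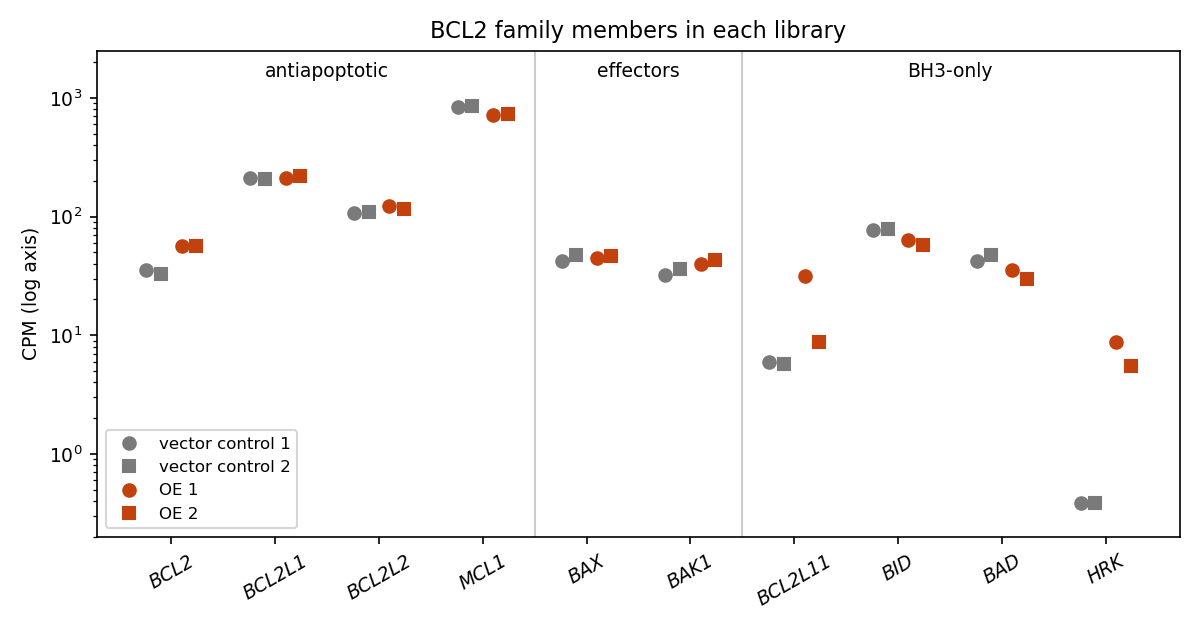
CPM (log axis) of the 10 members in each of the 4 libraries, grouped by role, with grey points for the vector control and orange points for *RP5-998N21.4* OE. *HRK* lies at 0.386 and 0.383 CPM in the vector control and at 8.76 and 5.49 CPM in OE, *BCL2* lies higher in both OE libraries, and the OE libraries are farthest from each other for *BCL2L11*, at 31.4 and 8.77 CPM.

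*HRK* had the largest difference of the family. HRK is a BH3-only protein that binds BCL2 and BCL-XL. The gene (ENSG00000135116.5) spans bases 117293949 to 117319246 of chromosome 12 in hg19, minus strand. It had 9 and 9 counts in vector control against 220 and 159 in OE. *HRK* passed the filter on low counts only through the OE libraries, where it is high, which limits what its p-values and rank can show. Every count was on 1 coding transcript, ENST00000257572.5, of the 4 listed. The level was 0.384 ± 0.00246 CPM in vector control against 7.12 ± 2.31 CPM in OE (mean ± SD, n = 2 each), and both OE libraries lay far above both vector control libraries. The difference on the log2 scale was 4.19 (standard error, SE, 0.362), an 18.3-fold difference, with an adjusted p of 0.0585 from edgeR's test. Among the tested genes, 0.229% had a log2 fold change at least as large, and *HRK* ranked 159 by p. Dropping 1 library at a time moved its log2 fold change from 3.82 (without OE replicate 1) to 4.49 (without OE replicate 2). DESeq2's adjusted p was 4.77e-15. *HRK* nevertheless stayed the member with the lowest level per length, at 3.12 and 2.01 TPM in OE.

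Because *HRK* had the largest difference, the 250 bases before its start are shown, from RefSeq's promoter table and placed by exact match on the minus strand of hg19 at chr12:117319247-117319496. Capitals mark GC boxes, the letters GGGCGG on either strand.
HRK: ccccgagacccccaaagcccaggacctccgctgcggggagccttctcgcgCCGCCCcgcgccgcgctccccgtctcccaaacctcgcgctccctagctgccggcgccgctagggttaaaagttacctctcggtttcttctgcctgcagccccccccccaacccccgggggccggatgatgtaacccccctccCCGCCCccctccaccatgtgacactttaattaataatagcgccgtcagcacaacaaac
The window held 2 GC boxes and had a GC content of 66.4%, beside a median of 58% over 35116 such windows, of which 42.6% held a GC box. None of 5 other motifs searched on both strands was found in it. These were the AP-1 site (TGANTCA, in 6.57% of all windows), the cyclic AMP response element (TGACGTCA, in 1.65%), the E2F site (TTTNGCGC, in 1.51%), the TATA box (TATAAA, in 10.7%) and the E-box (CACGTG, in 6.34%). The table held a window for 8 of the 10 members, without *BCL2L2* and *MCL1*. GC boxes were found in 6 of the 8, from 1 in *BAX* and in *BAD* to 4 in *BID*, and not in *BCL2* or *BCL2L1*. The AP-1 site and the cyclic AMP response element were found in 0 of the 8. The *BAX* window held the E-box, whose letters read the same on both strands, at 4 positions. The *BCL2L1* window held 2 TATA boxes and 1 E2F site.

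*BCL2* had the largest difference of the 4 antiapoptotic members. It encodes the founding member of the family, on the outer mitochondrial membrane and the endoplasmic reticulum. The gene (ENSG00000171791.10) spans bases 60790579 to 60987361 of chromosome 18 in hg19, minus strand. It had 827 and 772 counts in vector control against 1428 and 1631 in OE. The level was 34.1 ± 1.88 CPM in vector control against 56.6 ± 0.369 CPM in OE (mean ± SD, n = 2 each), and the conditions did not overlap. The log2 fold change was 0.73 (SE 0.0943, adjusted p = 0.0779 by edgeR), a 1.66-fold difference. Dropping 1 library at a time gave values from 0.67 to 0.78, and DESeq2's adjusted p was 3.33e-12.

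The counts of *BCL2* were placed almost wholly on the transcript of the full-length protein, ENST00000398117.1, whose coding part has 239 codons. It held 99.0% and 98.8% of the gene's counts in the vector control and 99.5% in OE replicate 2. In OE replicate 1 it held 88.4% (95% Wilson interval 86.7% to 90.0%), and ENST00000589955.1, a transcript of 1 exon with 205 codons, held 165 counts, against 8 and 9 in the vector control and 7 in OE replicate 2. The short form was therefore high in 1 OE library and not in the other. The long transcript alone had a log2 fold change of 0.65 (SE 0.115, adjusted p = 0.183 by edgeR over 30255 transcripts). At the thresholds above, edgeR called 0 of the members' transcripts and 0% of all transcripts tested, while DESeq2 called 2, the single *HRK* transcript and this one, with a background of 9.12%.

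*MCL1* was lower in OE. MCL1 is a short-lived antiapoptotic protein, and its gene (ENSG00000143384.8, minus strand of chromosome 1 of hg19, 150533371 to 150552214) had the highest level per length of the family in all 4 libraries. It was at 840 and 858 CPM in the vector control and at 712 and 737 CPM in OE, so both OE libraries lay below both vector control libraries. The log2 fold change was -0.23 (SE 0.0447, adjusted p = 0.118 by edgeR), a 1.17-fold lower level with values from -0.25 to -0.20 when 1 library at a time was dropped. DESeq2's adjusted p was 1.90e-07, but the change was below the threshold of 0.5. The coding transcript ENST00000369026.2 held from 95.4% to 100% of the counts. The rest was on ENST00000464132.1, annotated as a retained intron, with 263 and 0 counts in vector control against 818 and 425 in OE.

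The other antiapoptotic genes differed little. *BCL2L1* (ENSG00000171552.8, chromosome 20 of hg19, 30252255 to 30311792, minus strand), which encodes BCL-XL, was at 210 and 209 CPM in the vector control and at 212 and 220 CPM in OE (log2 fold change 0.04, SE 0.0612, adjusted p = 0.740 by edgeR). Its 3 transcripts with counts all code for the long form of 233 codons, and the share of the leading one was between 69.4% and 72.5% in every library. *BCL2L2* (ENSG00000129473.5, chromosome 14 of hg19, 23767999 to 23780960, plus strand), which encodes BCL-W, was at 108 and 109 CPM in the vector control and at 123 and 116 CPM in OE (log2 fold change 0.14, SE 0.0757, adjusted p = 0.379 by edgeR). The read-through gene *BCL2L2-PABPN1* shares 590 exon bases with *BCL2L2* and was given at most 8 counts in any library. *BCL2L2* also shares 206 exon bases with *PPP1R3E* on the opposite strand, which had from 447 to 700 counts.

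**Figure D2:**
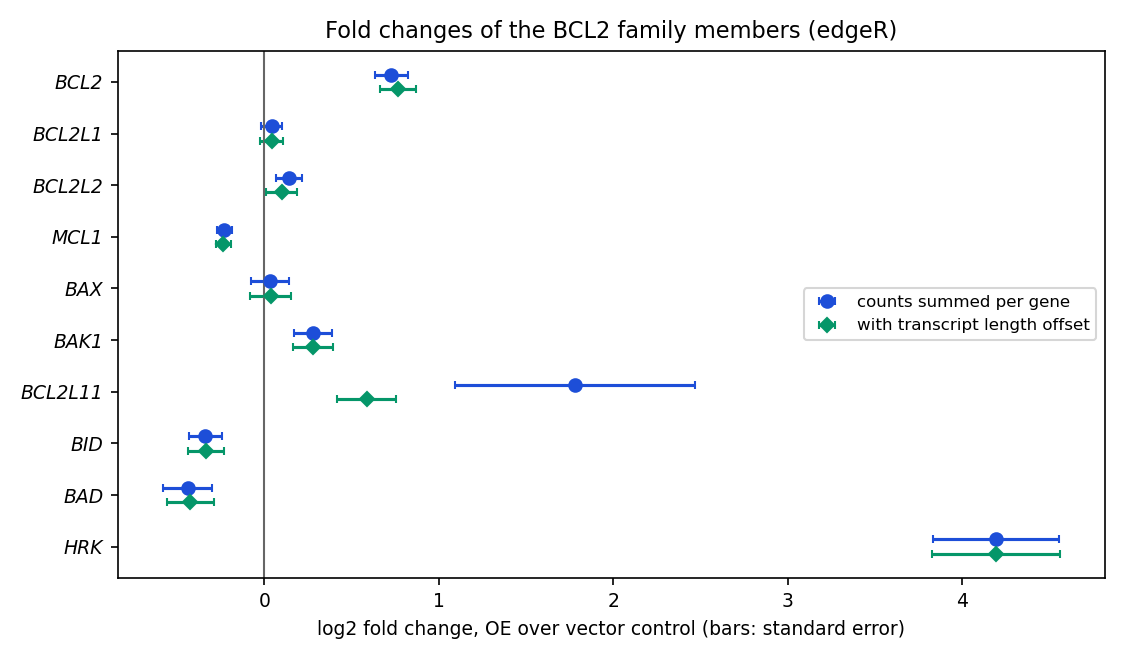
Log2 fold change of each member, *RP5-998N21.4* OE over vector control, with standard errors from edgeR, for counts summed per gene (blue circles) and with the mean transcript length of each library as an offset (green diamonds). *BCL2L11* is at 1.78 on the first and 0.59 on the second, and for the other 9 members the points nearly coincide.

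Of the effectors, *BAX* overlapped between the conditions and *BAK1* did not. *BAX* (ENSG00000087088.15, chromosome 19 of hg19, 49458072 to 49465055, plus strand) was at 42.0 and 47.7 CPM in the vector control and at 44.8 and 47.0 CPM in OE, with overlapping libraries and a log2 fold change of 0.03 (SE 0.110, adjusted p = 0.898 by edgeR). The sign of this value was not stable, being -0.062 without vector control replicate 1 and -0.0022 without OE replicate 2. From 99.3% to 100% of its counts were placed on ENST00000502487.1, which the annotation calls a retained intron and gives no coding part. The coding transcripts of *BAX* together had at most 8 counts in any library.

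*BAK1* (ENSG00000030110.8, chromosome 6 of hg19, 33540324 to 33548070, minus strand) was at 32.4 and 35.9 CPM in the vector control and at 40.0 and 42.9 CPM in OE. The conditions did not overlap, and the log2 fold change was 0.28 (SE 0.108, adjusted p = 0.267 by edgeR). The count of *BAK1* is uncertain, because its processed pseudogene *BAK1P1* on chromosome 20 (hg19, 31277982 to 31278617) had 677 and 723 counts in vector control against 759 and 885 in OE, where *BAK1* had 756 and 844 counts in vector control against 1005 and 1242 in OE. The log2 fold change of *BAK1P1* was 0.02 (SE 0.0954, adjusted p = 0.916 by edgeR), with overlapping libraries. With the counts of both added, the log2 fold change was 0.17 (SE 0.0936, adjusted p = 0.403 by edgeR).

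Of the BH3-only genes, *HRK* and *BCL2L11* were higher in OE and *BID* and *BAD* were lower, but edgeR called none of them. The difference in direction was not tested. *BID* (ENSG00000015475.14, chromosome 22 of hg19, 18216904 to 18257536, minus strand), whose protein is cut by caspase-8 and so links death receptors to mitochondria, was at 76.5 and 77.9 CPM in the vector control and at 64.0 and 58.1 CPM in OE (log2 fold change -0.34, SE 0.0954, adjusted p = 0.186 by edgeR). *BAD* (ENSG00000002330.9, chromosome 11 of hg19, 64037302 to 64052176, minus strand), whose protein is held inactive by phosphorylation under growth factor signals, was at 41.8 and 47.1 CPM in the vector control and at 35.7 and 29.8 CPM in OE (log2 fold change -0.44, SE 0.142, adjusted p = 0.217 by edgeR). Without OE replicate 2 the value for *BAD* was -0.32, and without OE replicate 1 it was -0.57. Exons of *BAD* overlap 404 bases of *GPR137* on the opposite strand, which had from 863 to 1107 counts, and the use of strand in the counting is not given in the sources used here.

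*BCL2L11* encodes BIM, a BH3-only protein that binds all antiapoptotic members, in splice forms known as BIM-EL, BIM-L and BIM-S. The gene (ENSG00000153094.17) spans bases 111876955 to 111926021 of chromosome 2 in hg19, plus strand. It had 139 and 134 counts in vector control against 788 and 254 in OE, so that the OE libraries differed from each other more than OE replicate 2 did from the vector control. The log2 fold change of 1.78 (SE 0.686, adjusted p = 0.267 by edgeR) rested on OE replicate 1. It was 0.59 without OE replicate 1 and 2.43 without OE replicate 2. Exons of *BCL2L11* share 727 bases with *MIR4435-2HG* on the opposite strand, which had from 499 to 654 counts.

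The 2 OE libraries differed in the transcript to which the reads were assigned. In OE replicate 1, 774 of the 788 counts (98.2%, 95% Wilson interval 97.0% to 98.9%) were on ENST00000393256.3, which has 198 codons, the length of BIM-EL, and is 5098 nt long. That transcript had 0 counts in the other 3 libraries, below a limit of 3 counts each. There the leading transcript was ENST00000308659.8, with 138 codons, the length of BIM-L, and 1522 nt, which held 120 and 100 counts in the vector control, 227 in OE replicate 2 and 0 in OE replicate 1. The coding parts of these transcripts differ by 1 stretch of 180 bases, which the longer one keeps and the shorter one skips. It lies on the plus strand of hg19 at chr2:111881447-111881626 and is shown because it is what sets the transcripts apart in the coding part.
BCL2L11: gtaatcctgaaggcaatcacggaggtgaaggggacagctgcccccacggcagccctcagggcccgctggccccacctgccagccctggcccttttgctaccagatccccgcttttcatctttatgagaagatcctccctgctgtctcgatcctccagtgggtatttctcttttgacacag

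Divided by transcript length, the OE libraries came together. *BCL2L11* had 112 and 94.0 counts per kb in the vector control and 176 and 179 counts per kb in OE, summed over its transcripts. These values were not scaled for library depth. In TPM it was at 9.75 and 7.89 in the vector control and at 14.5 and 13.1 in OE, without overlap. With the mean transcript length as an offset in edgeR's fit, the log2 fold change was 0.59 (SE 0.170, unadjusted p = 0.0270, adjusted p = 0.201), and 19.5% of the 17961 genes in that fit had an unadjusted p under 0.05. The lengths came from a later release of the annotation than the table's transcript versions, which matched it in 7 of the 26 member transcripts with counts.

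**Figure D3:**
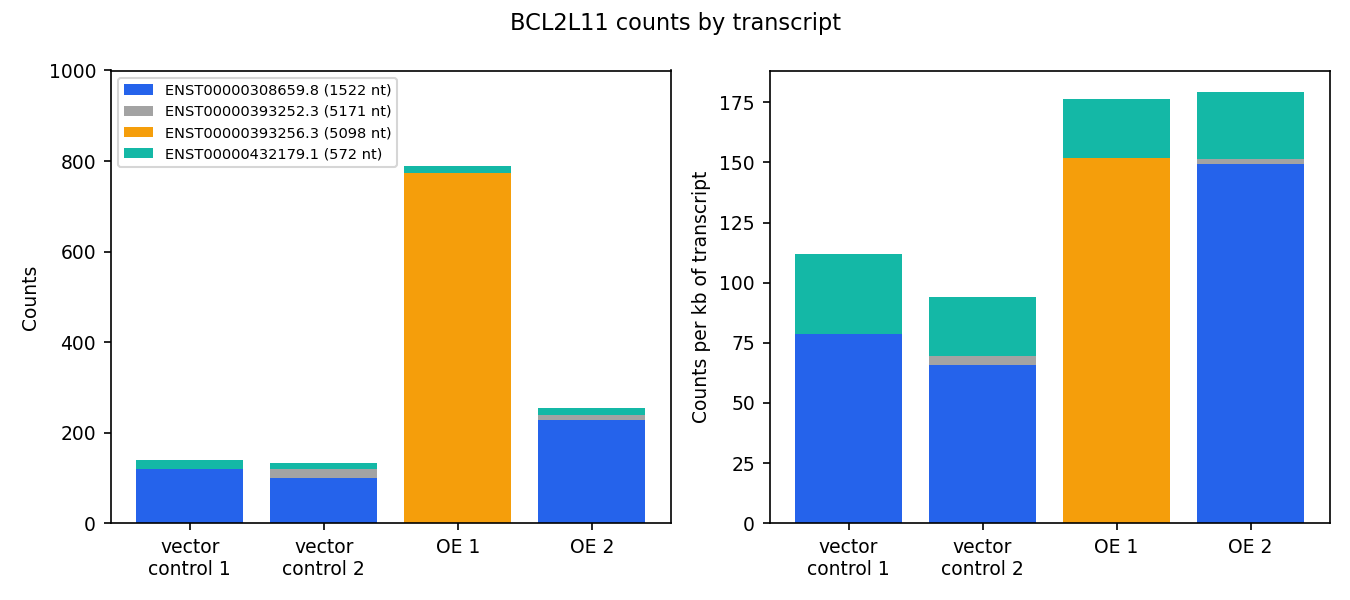
Counts of *BCL2L11* by transcript in each library (left) and the same counts per kb of transcript (right), with 1 colour per transcript. OE replicate 1 holds 788 counts, nearly all on the transcript of 5098 nt, and OE replicate 2 holds 254, while their summed values per kb are 176 and 179. Neither panel is scaled for library depth.

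On the scale of TPM the order of the members was nearly the same in both conditions. In the vector control it was *MCL1* (430 ± 1.12 TPM, SD, n = 2), *BCL2L1* (163 ± 3.74), *BCL2L2* (83.5 ± 1.34), *BAD* (80.8 ± 4.14), *BAX* (67.0 ± 5.20), *BID* (62.3 ± 0.302), *BAK1* (31.5 ± 1.65), *BCL2* (9.21 ± 0.675), *BCL2L11* (8.82 ± 1.31) and *HRK* (0.133 ± 0.00337). The libraries of *BCL2L2* and *BAD* overlapped, as did those of *BCL2* and *BCL2L11*, and the other neighbours did not. In OE the order was the same except that *BAX* (71.8 ± 3.21 TPM, SD, n = 2) came before *BAD* (62.8 ± 5.91), and no neighbours overlapped. *BCL2*, at 16.4 ± 0.333 TPM in OE, thus stayed far below *MCL1*, at 382 ± 17.1 TPM, and below *BCL2L1*, at 175 ± 7.78 TPM.

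Shares within the antiapoptotic members were taken as descriptions and were not tested, and edgeR called none of these members. The share of *MCL1* in their summed TPM was 62.5% and 62.9% in the vector control and 56.8% and 57.7% in OE, and that of *BCL2* was 1.41% and 1.28% in the vector control and 2.55% and 2.36% in OE. There were 44.4 and 49.1 TPM of *MCL1* per TPM of *BCL2* in the vector control and 22.3 and 24.4 in OE. *BCL2* per *BAX* was 0.153 and 0.124 in the vector control and 0.238 and 0.217 in OE, with nearly all *BAX* counts on the retained-intron transcript that has no coding part, so the ratio is not one of coding transcripts. The ratio of *HRK* to its binding partner *BCL2L1* was 0.0817% and 0.0814% in the vector control and 1.84% and 1.11% in OE.

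Sums over the roles were also taken. The 4 antiapoptotic members summed to 688 and 683 TPM in the vector control and to 651 and 682 TPM in OE. The effectors, with the same limit for *BAX*, summed to 93.7 and 103 TPM and to 108 and 116 TPM, and the BH3-only members to 150 and 154 TPM and to 138 and 123 TPM. The antiapoptotic sum per sum of effectors and BH3-only members was 2.82 and 2.65 in the vector control and 2.65 and 2.85 in OE, so that the conditions overlapped for this ratio and lay apart for each of the 3 sums, barely so for the antiapoptotic one. These sums are descriptions of mRNA and carry no test.

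**Figure D4:**
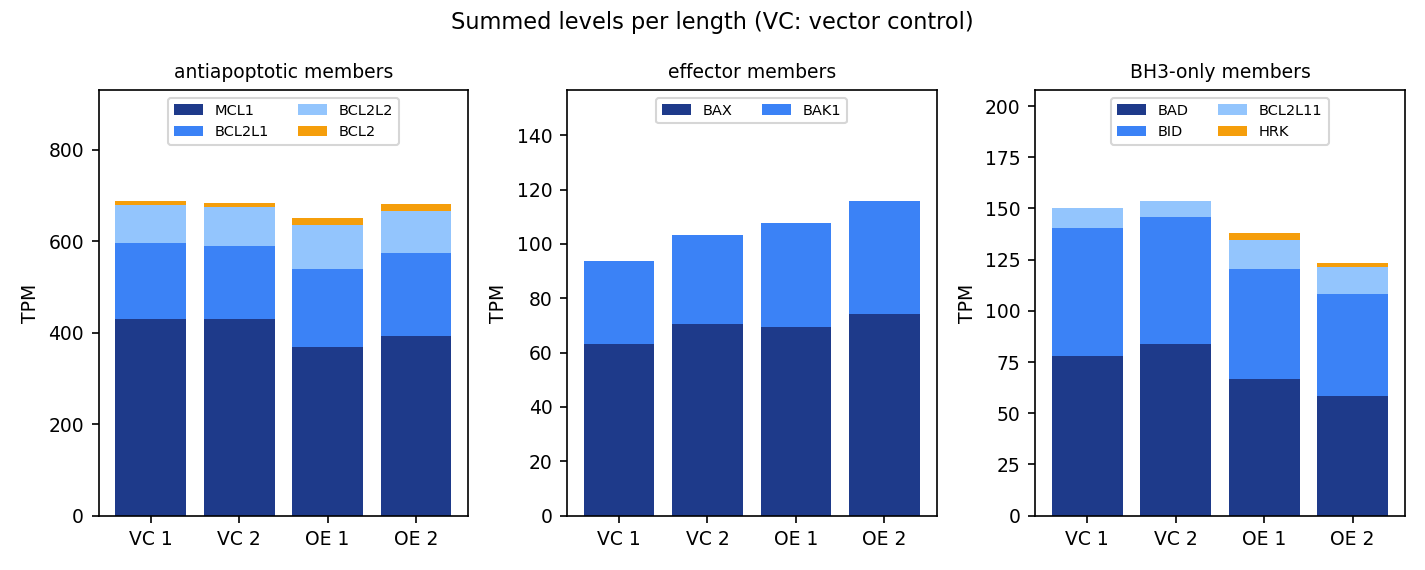
Stacked TPM of the antiapoptotic, effector and BH3-only members in each library (VC, vector control), each panel with its own axis from 0. *MCL1* makes up 62.5% and 62.9% of the antiapoptotic sum in the vector control and 56.8% and 57.7% in OE.

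The members were set beside 48 other apoptosis genes, all in the table, of which 40 were tested. By edgeR, 0 of the 40 passed the study's thresholds. DESeq2 called 5 of the 40 at these thresholds, with *VDAC3* (adjusted p = 3.90e-37), *FAS* (7.40e-23) and *BMF* (2.45e-05) higher and *ENDOG* (8.45e-05) and *CASP6* (0.00725) lower in OE, beside 8.77% of all tested genes. At an unadjusted p under 0.05, 9 were higher and 4 lower in OE (10.1% and 10.7% of all genes), with a median log2 fold change of -0.08 over the 40. Of the 4 other BH3-only genes, 3 were tested and 2 had an unadjusted p under 0.05, both higher in OE, beside 10.1% of all tested genes. *BMF*, whose protein links the cytoskeleton to cell death, was at 11.6 and 10.1 CPM in the vector control and at 17.9 and 19.3 CPM in OE (log2 fold change 0.78, SE 0.139, adjusted p = 0.108 by edgeR). *BBC3*, which encodes PUMA, a p53 target, was at 61.0 and 66.6 CPM in the vector control and at 89.9 and 76.4 CPM in OE (log2 fold change 0.38, SE 0.126, adjusted p = 0.223 by edgeR). *PMAIP1*, which encodes NOXA, the partner of MCL1, differed between replicates instead, with 108 and 220 CPM in the vector control and 115 and 252 CPM in OE. The main transcript also differed between replicates. ENST00000269518.9 had 2017 and 2278 counts in replicate 1 of the 2 conditions and 0 in replicate 2, and ENST00000316660.6 had 5098 and 7149 counts in replicate 2 and 0 in replicate 1.

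Of the other antiapoptotic genes, 1 of 2 had an unadjusted p under 0.05 and was higher, beside 10.1% of all tested genes. That gene, *BCL2L10*, passed the filter on low counts only through the OE libraries, where it is high, which limits what its p-value can show. *BCL2L10* (log2 fold change 1.66, SE 0.524, adjusted p = 0.212 by edgeR) had 4 and 4 counts in vector control against 11 and 19 in OE, and *BCL2A1* had 11 and 16 counts and 18 and 46 counts. *BOK*, *BNIP3* and *BNIP3L*, which encode related mitochondrial proteins, had overlapping libraries, with log2 fold changes of -0.10, 0.05 and -0.07. *BCL2L13* had 2850 and 2723 counts in vector control against 3564 and 1065 in OE, and its log2 fold change of -0.41 turned to 0.25 without OE replicate 2. With transcript length as an offset and all libraries kept it was 0.26 (SE 0.0883, unadjusted p = 0.0427, adjusted p = 0.240 by edgeR). *BCL2L12* was at 2.14 and 1.96 CPM in the vector control and at 2.71 and 3.31 CPM in OE, and its log2 fold change of 0.55 was 0.09 with that offset. Of these 5 related genes, 0 had an unadjusted p under 0.05 by edgeR without the offset, beside 20.8% of all tested genes, and DESeq2 called 0, beside 8.77%.

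Of 11 genes for mitochondrial release and the apoptosome, 3 were higher and 1 was lower in OE at an unadjusted p under 0.05, beside 10.1% and 10.7% of all tested genes. *CYCS*, which encodes cytochrome c, was at 137 and 141 CPM in the vector control and at 172 and 174 CPM in OE (log2 fold change 0.31, SE 0.0654, adjusted p = 0.128 by edgeR). *VDAC3*, a channel of the outer mitochondrial membrane, was at 5.23 and 4.89 CPM in the vector control and at 24.8 and 22.4 CPM in OE, and it alone of the 40 had an adjusted p below 0.05 (log2 fold change 2.22, SE 0.135, adjusted p = 0.0376 by edgeR). The transcript given the reads differed between the conditions. ENST00000392935.3, which had no length in the annotation used here, had 0 and 0 counts in vector control against 599 and 614 in OE, while ENST00000524291.1 had 80 and 67 counts in vector control and 0 in both OE libraries. *VDAC3* was therefore not in the fit with transcript length as an offset. *ENDOG*, a mitochondrial nuclease, was lower, at 16.1 and 19.7 CPM in the vector control and at 9.07 and 6.46 CPM in OE (log2 fold change -1.21, SE 0.240, adjusted p = 0.120). Of 6 caspases, 1 was higher and 2 were lower at that p, with the same background. The executioner *CASP6* was at 14.6 and 17.4 CPM in the vector control and at 9.75 and 6.32 CPM in OE (log2 fold change -0.99, SE 0.273, adjusted p = 0.180).

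Of 5 tested inhibitors of caspases, 1 was higher and 1 was lower in OE at an unadjusted p under 0.05, where the background was 10.1% higher and 10.7% lower. *BIRC2*, which encodes cIAP1, was at 156 and 138 CPM in the vector control and at 100 and 110 CPM in OE (log2 fold change -0.49, SE 0.105, adjusted p = 0.133 by edgeR). *BIRC6*, a large ubiquitin ligase, was at 152 and 135 CPM in the vector control and at 176 and 179 CPM in OE (log2 fold change 0.31, SE 0.0885, adjusted p = 0.191). Of 8 tested genes of the death receptor pathway, 1 was higher and 0 were lower, counts near that background. *FAS*, a death receptor, was at 4.29 and 7.14 CPM in the vector control and at 44.3 and 47.3 CPM in OE, without overlap (log2 fold change 3.0, SE 0.302, adjusted p = 0.0637 by edgeR). Its counts in OE were mostly on ENST00000355740.2, with 1026 and 1271 counts there against 0 and 47 in the vector control, and with transcript length as an offset the log2 fold change was 1.82 (SE 0.195, adjusted p = 0.0702). As with *BCL2L11*, the log2 fold change was smaller with that offset, and the part of read assignment in it was not tested.

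**Figure D5:**
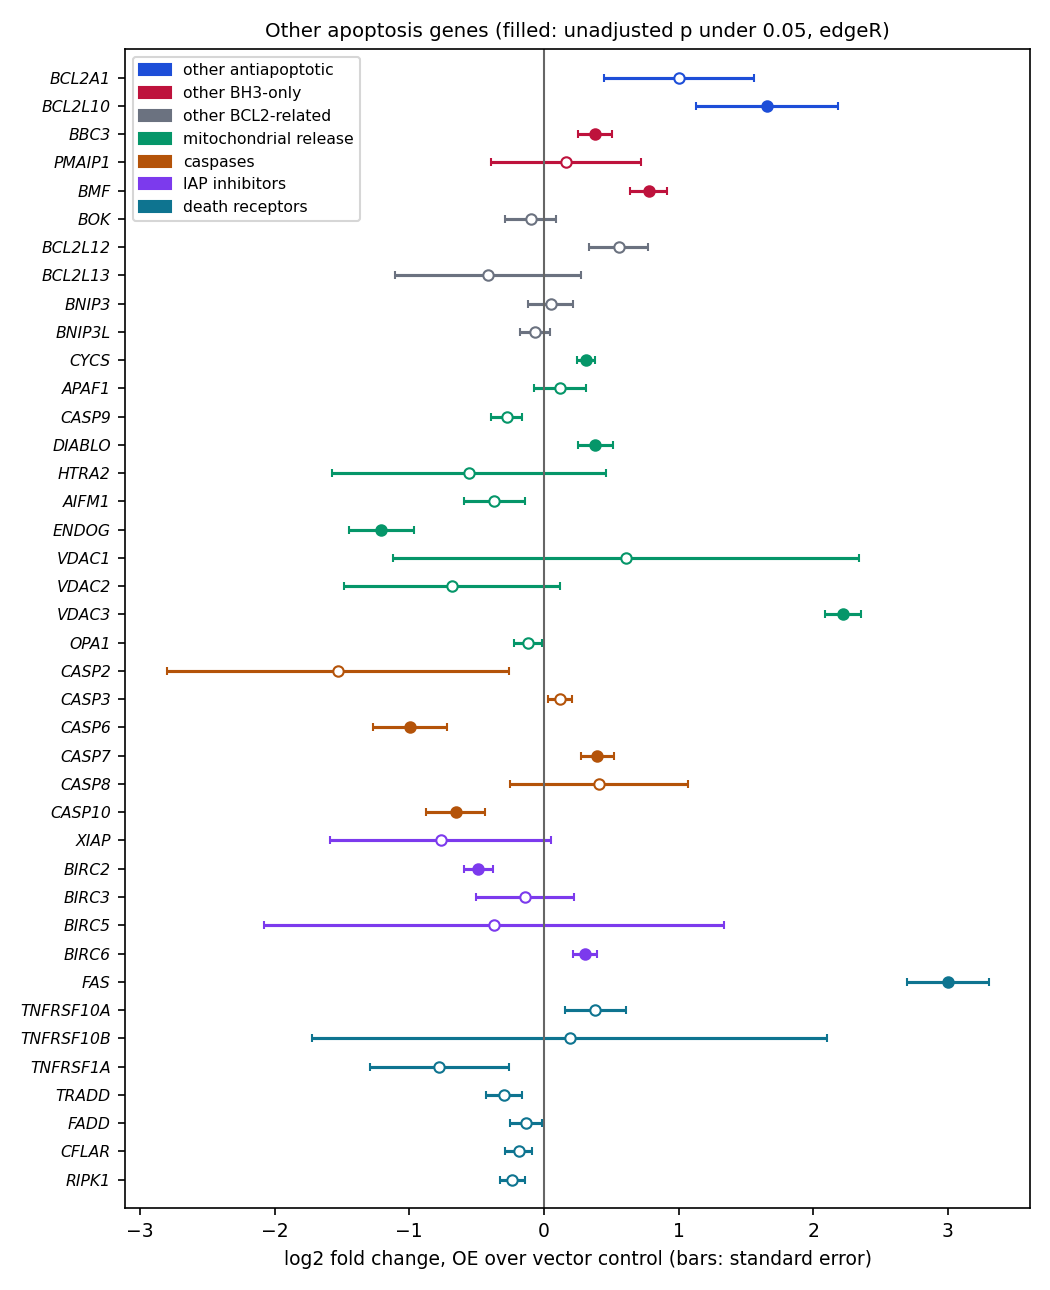
Log2 fold change of the 40 other apoptosis genes tested, *RP5-998N21.4* OE over vector control, with standard errors from edgeR and 1 colour per gene group. Filled points are the 13 genes at an unadjusted p under 0.05, with *FAS* at 3.0 and *VDAC3* at 2.22 farthest to the right and *ENDOG* at -1.21 farthest to the left among them.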

How the data were processed

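RNA-seq was analysed in 4 libraries of SK-N-SH cells, grouped by the sample labels. Reads were trimmed by the authors with Trimmomatic and aligned with Bowtie2 against hg19. They deposited raw counts, whole numbers for each Ensembl transcript. The submitters' processing notes list Bowtie2 2.0.4, Picard 2.21.6, StringTie 2.1.6 and DESeq2. The tool that counted the reads, the annotation release and the use of strand are not given in the sources used here.

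Counts were summed per gene identifier, filtered with filterByExpr and scaled by TMM. The quasi-likelihood test of edgeR 4.0.16 (R 4.3.3) was then run across 20528 genes, and likewise across 30255 transcripts, without covariates. Standard errors are the log2 fold change divided by the square root of F. The study's methods name DESeq2, which was an alternative here (DESeq2 1.42.0), as was limma-voom (limma 3.58.1). The other alternatives were RLE and upper-quartile factors, filters at 1 count in total and at a mean of 10 counts, blocking by replicate number, dropping single libraries, the transcript with the highest mean count, and looser thresholds. A transcript length offset and the addition of *BAK1P1* to *BAK1* were chosen after seeing the data. The transcript length offset kept 17961 genes whose counted transcripts all had a length.

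TPM, positions and lengths came from the lifted GENCODE v44 annotation for GRCh37, the same build as hg19, which held 93.05% of the table's transcripts and from 93.2% to 93.7% of the counts. Motifs were searched in the 250 bases before each RefSeq start. Wilson intervals (scipy 1.17.1) and the limit of 3 counts for a 0 account for counting error alone, as no source used here names molecular identifiers. The scripts were tested on simulated counts. The members, gene lists and tests were chosen with earlier results of these data known. The named genes are the 10 members, other BCL2 family genes, and up to 5 other apoptosis genes per direction with the smallest unadjusted p under 0.05, a mean of at least 5 CPM and conditions that do not overlap. *BCL2A1* and *BCL2L10*, whose means lie below the minimum for other family genes, were named after their values were seen.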

Additional observations from a re-analysis of the deposited data

How the results depend on the processing

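In edgeR's fit 0 genes, 0 of the 10 members, 0 of the 40 other apoptosis genes and 0 of the members' transcripts were called. DESeq2 called 1800 genes, 2 members, 5 of the other apoptosis genes and 2 of the members' transcripts. At an adjusted p under 0.05 with a log2 fold change beyond 0.5, 122 genes and 1 of the other apoptosis genes were called, and at an unadjusted p under 0.05, 4269 genes, 5 members and 13 of the other apoptosis genes. A minimum of 1 count in total gave 9 genes and the transcript with the highest mean count gave 1 gene. The median log2 fold change of the members was 0.13 with upper-quartile factors, 0.042 with the transcript with the highest mean count, and from 0.084 to 0.13 with each library left out, beside 0.09. *BAX* changed sign, to -0.062 without vector control replicate 1 and to -0.0022 without OE replicate 2 (up to 0.12 without vector control replicate 2), and the other 9 members kept their sign under every alternative run for them. *BCL2L11* could not be tested on its highest transcript alone, which did not pass the filter. Where a library was left out, its condition had 1 library, which was assumed to vary like the other condition. Across genes as a whole the replicate numbers showed no pairing of the libraries (correlation of the replicate differences -0.02 over 20528 genes). Single genes could still differ by replicate number in both conditions, as *PMAIP1* did. With the replicate block, 0 genes and 0 members were called, 3 members and 14.9% of all genes had an unadjusted p under 0.05, and the median of the members was 0.09. Depth limited *HRK* in the vector control, with 9 counts per library.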
